A study of Mus musculus with 16 samples.

Results

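Myc and 33 genes of ribosome biogenesis were followed through 16 RNA sequencing libraries of mouse intestinal organoids, small closed epithelia that crypt cells form in culture. The 34 genes were a given list, not ranked by a measured value but drawn up with earlier results of these data known. Their symbols matched 34 of the 46078 Ensembl genes in the count tables. All 34 passed the filter on low counts, which kept 16510 genes. A member held between 197 and 29911 reads in a library.

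The series asks how Apc mutant cells of the gut act on their neighbours. Per the labels, crypts came from C57BL6 mice that carried Lgr5-EGFP-IRES-CreERT2 for wild type cultures. For mutant cultures the mice carried Apcfl/fl together with that allele or with Villin-CreERT2. The Cre recombinase in these alleles acts where the Lgr5 or Villin promoter is on, and 4OH-Tamoxifen was added in culture to recombine Apc. All organoids received EGF, R-spondin and Noggin. Per the protocols, wild type organoids carried a red mCherry construct (LeGO-C2) and Apc-/- organoids a green Venus construct (LeGO-V2). Untreated Apc mutant organoids on day 2 and untreated wild type organoids on day 2 gave 2 libraries each. Organoids in conditioned medium, which is medium taken from other organoid cultures and freshly supplemented, gave 3 libraries for each of 4 groups. Those groups are called APCCM and WTCM here, after their titles, on day 2 and on day 4. Their genotype labels are Apc mutant and WT, and all 12 carry the treatment label of Apc mutant medium.

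Several facts touch every result below. Notum and Nkd1, Wnt feedback genes that Apc loss raises, read 285 and 486 CPM in untreated mutant organoids and 0.273 and 1.55 CPM in untreated wild type organoids, where 9 of 9 Wnt feedback genes were called higher in the mutant. Of these 9 genes 4 were lower in APCCM than in WTCM on day 2 and 6 on day 4, and none was called higher, which goes against the Apc mutant label of the 6 APCCM libraries. APCCM may stand for the organoids or for where their medium came from, so no direction between APCCM and WTCM is read as a genotype effect. The untreated libraries had fewer gene counts (8325979 to 13027701) than the others (17986815 to 29152692). The RNA Gm26917 took at most 0.00952% of their counts and at least 7.68% of the others, so the RNA content of the libraries differed. Levels were therefore not tested between untreated organoids and organoids in conditioned medium. Within conditioned medium Gm26917 took 9.41 to 11.5% of the counts on day 2 and 7.68 to 8.88% on day 4. The part of this smaller difference in the day comparisons was not tested. In WTCM on day 4, replicate 1 stood apart from its replicates, with a chi-square per degree of freedom of 39.9 and 42.2 against 3.30 to 6.08 for all other pairs. The labels do not say whether replicates were separate cultures or animals, so p-values measure only the spread between these samples. In conditioned medium the day 2 libraries and the day 4 libraries carry separate runs of sample numbers and different title styles. The labels name no batch, but any difference between these sets of libraries cannot be told apart from day.

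Ribosomes are built in the nucleolus. RNA polymerase I copies the ribosomal RNA precursor, small nucleolar ribonucleoproteins (snoRNPs) modify it, and large protein assemblies cleave and fold it into the small (40S) and large (60S) subunits. Myc is a transcription factor that binds DNA as a partner of Max, at the motif CACGTG called an E-box, and genes of ribosome biogenesis are among its best known targets. In the intestine Myc is a Wnt target that crypt progenitors express, and it is known for its part in tumours that follow the loss of Apc.

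The E-box motif was searched in the RefSeq promoter windows of build GRCm38.p6, which run from 250 bases before to 50 bases after each transcription start. The motif reads the same on both strands. Of the 34 genes, 28 had a window and 8 of these (28.6%) held an E-box, against 8.91% of 17492 protein-coding genes. A match is a description of these letters and not a measured binding site. The 8 genes were Nop2, Utp20, Pes1, Pno1, Mybbp1a, Tsr1, Rrn3 and Wdr43. The sites of Rrn3, Pno1 and Nop2 are printed because these genes lead results below, with the motif in capitals, 5′ to 3′ on the strand of the gene. Positions count from +1 at the first transcribed base.

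Rrn3, chr16:13780472-13780501, plus strand, motif from -215: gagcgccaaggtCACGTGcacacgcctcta
Rrn3, chr16:13780639-13780668, plus strand, motif from -48: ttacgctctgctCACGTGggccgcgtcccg
Pno1, chr11:17211540-17211564, minus strand, motif from 38: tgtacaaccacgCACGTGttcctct
Nop2, chr6:125131811-125131840, plus strand, motif from -60: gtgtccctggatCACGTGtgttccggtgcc

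Rrn3 and Dkc1 were the members with the largest rise and the largest fall between untreated mutant and wild type organoids. Their 250 bases upstream are shown side by side, and only that of Rrn3 held the motif.

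Rrn3, chr16:13780449-13780698, plus strand: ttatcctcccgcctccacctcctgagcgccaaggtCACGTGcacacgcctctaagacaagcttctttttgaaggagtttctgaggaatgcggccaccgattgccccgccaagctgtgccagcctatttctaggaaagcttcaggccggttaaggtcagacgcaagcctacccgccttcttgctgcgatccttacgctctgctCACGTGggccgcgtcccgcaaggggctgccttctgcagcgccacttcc
Dkc1, chrX:75095604-75095853, plus strand: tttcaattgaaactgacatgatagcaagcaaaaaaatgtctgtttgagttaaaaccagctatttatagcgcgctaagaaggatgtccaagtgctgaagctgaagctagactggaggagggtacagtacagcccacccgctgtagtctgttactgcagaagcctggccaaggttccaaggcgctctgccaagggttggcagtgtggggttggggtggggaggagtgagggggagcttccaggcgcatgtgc

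Levels are CPM, read counts relative to the library size after TMM scaling. A gene is called higher or lower when edgeR's quasi-likelihood test gives it an adjusted p under 0.05, by the Benjamini-Hochberg method across the 16510 genes. Compared per kilobase of exon, Npm1 ranked 1st and Ncl 2nd of the 34 members in each of the 6 groups, and Wdr12 ranked 34th. Exon length here joins the exons of all annotated transcripts, retained introns included, which lowers the value of genes such as Wdr12 (11955 bases). Myc ranked 3rd in both groups on day 2 in conditioned medium and in untreated mutant organoids, 7th in both groups on day 4, and 8th in untreated wild type organoids.

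Myc (ENSMUSG00000022346, GRCm38 chromosome 15, 61985391 to 61990374) varied chiefly with day. In APCCM on day 2 Myc read 190 (replicate 1), 195 and 177 CPM, and in WTCM on day 2 it read 174, 169.7 and 170.3 CPM. On day 4 the APCCM libraries read 92.3, 86.7 and 88.9 CPM and the WTCM libraries 84.0, 88.7 and 80.1 CPM. The lowest day 2 library stood above the highest day 4 library by a wide margin in both labels. In untreated mutant organoids Myc read 140 and 166 CPM, and in untreated wild type organoids 134 and 113 CPM, so these groups did not overlap but their nearest libraries lay close together.

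**Figure D1:**
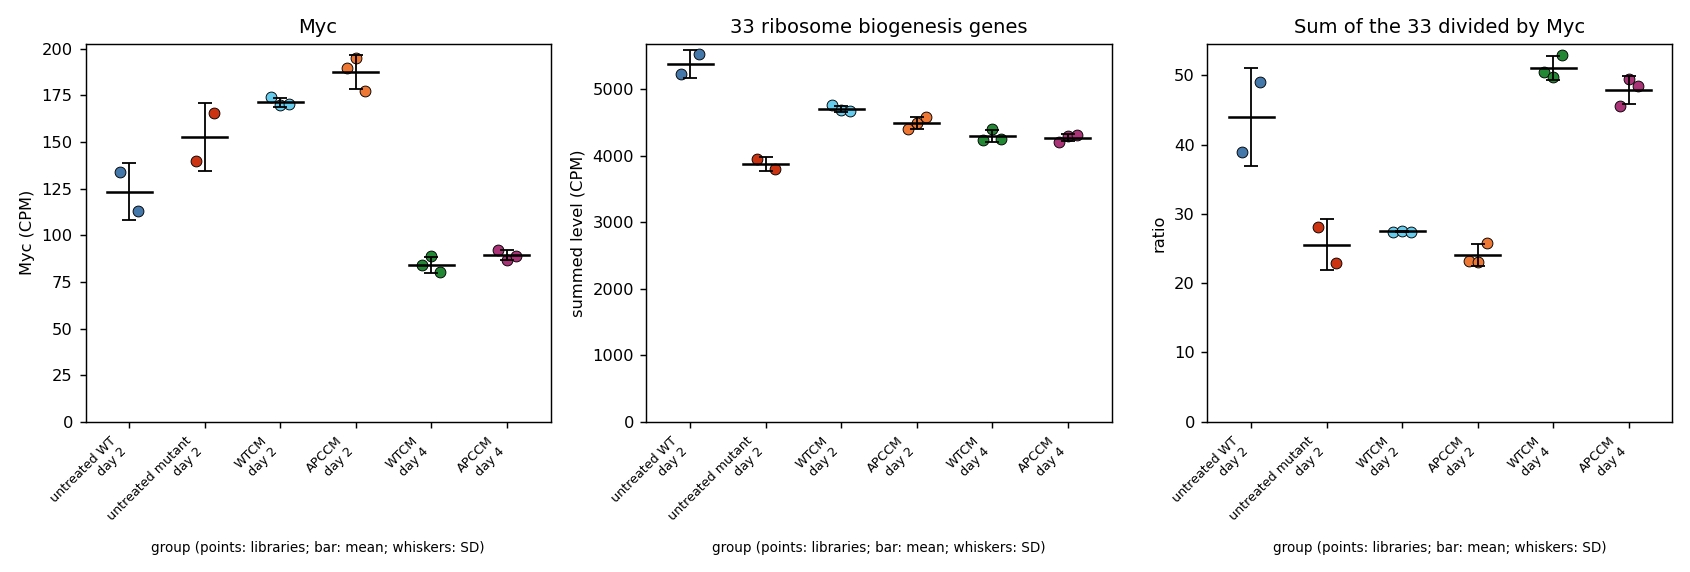
Level of Myc (CPM, left), summed level of the 33 ribosome biogenesis genes (CPM, middle) and their ratio (right) in each library of the 6 groups; points are libraries, bars are means and whiskers are SD. Myc falls from 169.7 CPM or more on day 2 to 92.3 CPM or less on day 4 in conditioned medium. The summed level falls less: in APCCM it spans 4402 to 4580 CPM on day 2 and 4209 to 4314 CPM on day 4. In WTCM it spans 4673 to 4754 CPM on day 2 and 4240 to 4405 CPM on day 4.

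Between untreated mutant and untreated wild type organoids, Myc and most ribosome biogenesis genes differed in opposite directions. Myc was higher in the mutant (152.8 ± 18.1 against 123 ± 15.0 CPM, SD, n = 2 each), with a log2 fold change of 0.31 (SE 0.08, adjusted p = 0.0020, edgeR). Of the 33 other members 24 were lower in the mutant, 1 was higher and 8 were not called. In this comparison 62.5% of all genes tested were called, 32.4% higher and 30.1% lower, so a call in itself was common. The median log2 fold change was -0.37 over the 33 members and 0 over all genes tested. With library totals in place of TMM scaling, the all-gene calls split into 6553 higher and 3900 lower instead of 5348 and 4971, and the median of all genes moved to 0.17. On that scale 18 of the 33 members were lower and 4 higher, with a median of -0.20, which again lay 0.37 below that of all genes. The rise of Myc rested on single libraries: without untreated mutant replicate 5 it was 0.18 (adjusted p = 0.083) and without wild type replicate 5 it was 0.19 (adjusted p = 0.074). With only the untreated libraries in the fit its adjusted p was 0.053 at 0.28.

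**Figure D2:**
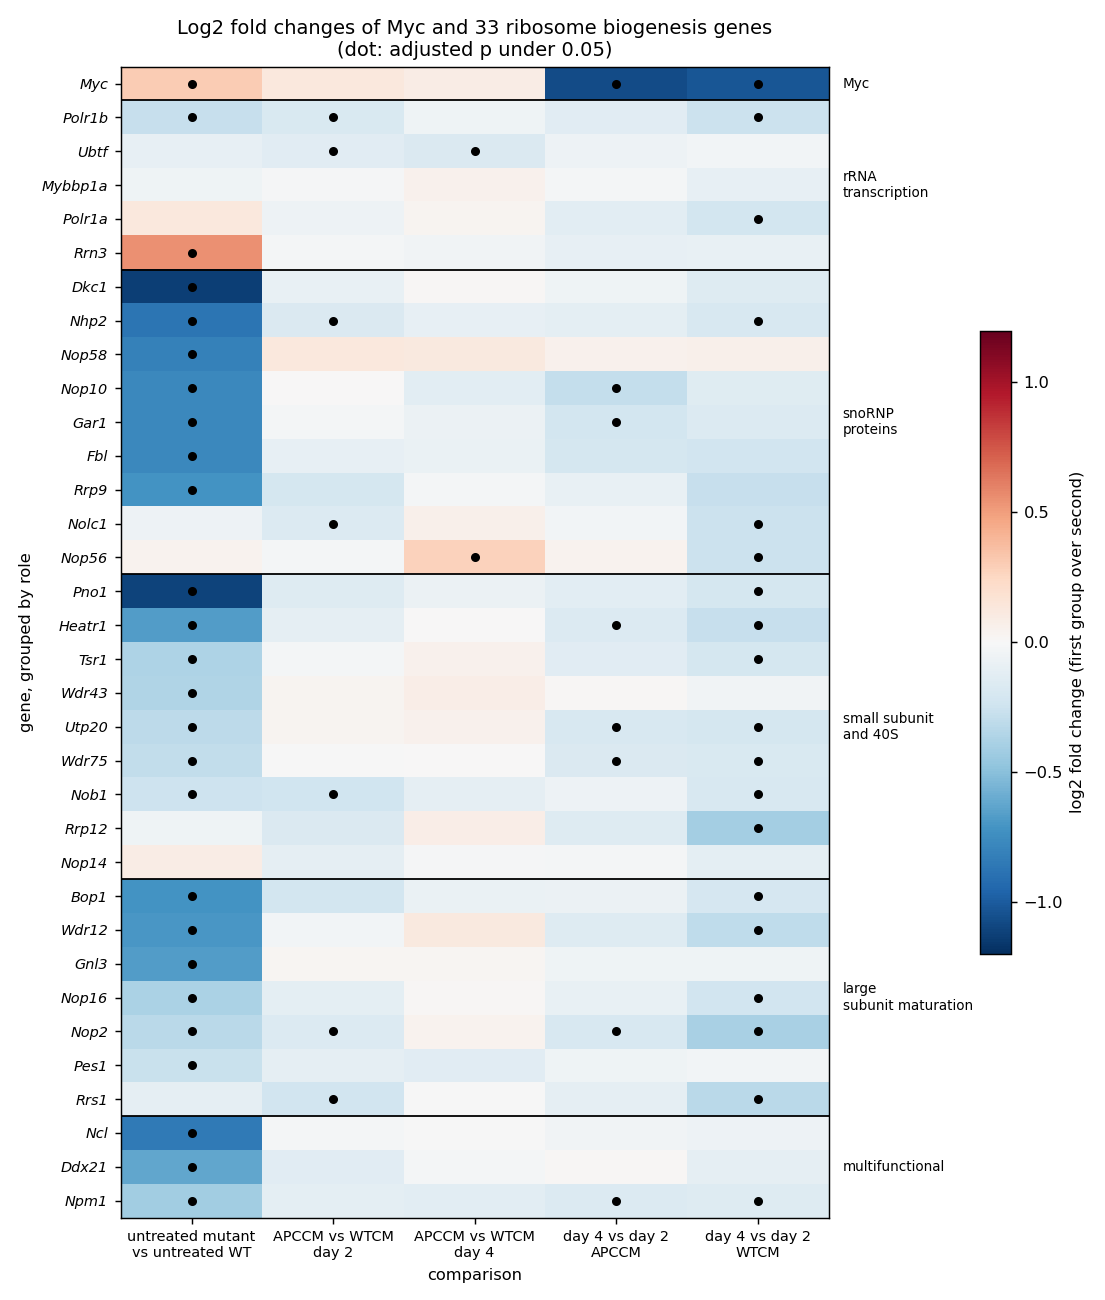
Log2 fold change of Myc and the 33 ribosome biogenesis genes (rows, grouped by role) in the 5 comparisons of 2 groups (columns), as colour from blue (lower in the first group) to red (higher); dots mark an adjusted p under 0.05. The first column holds 24 dots on blue below Myc, and the last 2 columns show Myc as the deepest blue cell.

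Among the genes of rRNA transcription 1 was higher, 1 was lower and 3 were not called. Rrn3, the factor that brings RNA polymerase I to the ribosomal DNA promoter, read 84.4 and 78.8 CPM in the mutant libraries and 55.3 and 56.2 CPM in the wild type libraries. Called members were shown by library only where their groups did not overlap, so the lack of overlap follows from that choice. Rrn3 was the 1 member besides Myc that was higher in the mutant (log2 fold change 0.55, SE 0.07, adjusted p = 1.4e-07). Polr1b, the second-largest subunit of the polymerase, was lower (-0.28, SE 0.07, adjusted p = 0.0011). The largest subunit Polr1a, the promoter-binding factor Ubtf and the nucleolar protein Mybbp1a were not called, at 0.12, -0.10 and -0.05.

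Of the 9 snoRNP proteins 7 were lower, and their median of -0.77 was the lowest of the roles. Dkc1, the pseudouridine synthase of H/ACA snoRNPs, read 70.8 and 62.6 CPM in the mutant libraries against 140 and 153 CPM in the wild type libraries, 2.19-fold lower (log2 fold change -1.13, SE 0.07, adjusted p = 5.4e-13). Its partner Nhp2 read 46.9 and 51.5 CPM against 93.8 and 86.7 CPM (-0.88, SE 0.08, adjusted p = 3.0e-10). Dkc1 overlaps Mpp1 and Nhp2 overlaps Rmnd5b on the opposite strand, and the strand setting of the counting is not given in the sources used here. The other core H/ACA proteins, Nop10 and Gar1, were lower by similar amounts, at -0.77 each, so all 4 core members of this complex were lower. Among the box C/D proteins, which guide 2′-O-methylation, the methyltransferase Fbl (-0.77) and the scaffold Nop58 (-0.81) were lower. Nop56, which pairs with Nop58 in the same particle, was not called, with 148 and 149 CPM in the mutant libraries lying inside the wild type range of 137 to 152 CPM. Rrp9, a protein of the U3 snoRNP, was lower (-0.72), and the snoRNP chaperone Nolc1 was not called (-0.06).

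Of the 9 genes of the small subunit processome and 40S maturation, 7 were lower. Pno1, which helps finish the small subunit together with the endonuclease Nob1, read 36.7 and 31.9 CPM in the mutant libraries and 75.3 and 72.7 CPM in the wild type libraries, 2.16-fold lower (-1.11, SE 0.07, adjusted p = 2.0e-12). Nob1 itself was lower by far less (-0.24, SE 0.08, adjusted p = 0.013). Pno1 overlaps Wdr92 on the opposite strand, with the same limit as Dkc1 and Nhp2. Heatr1 (-0.67), Wdr43 (-0.36) and Wdr75 (-0.30), which belong to the part of the processome that joins the nascent transcript first, were lower, as were Tsr1 (-0.37) and Utp20 (-0.31). Rrp12 and Nop14 were not called, at -0.05 and 0.09.

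Of the 7 genes of large subunit maturation, 6 were lower. Bop1 (-0.72), Wdr12 (-0.70) and Pes1 (-0.27) form 1 complex that processes the large subunit precursor, and Pes1 moved least of the 3. Gnl3, known as nucleostemin, stood at -0.67, Nop16 at -0.38 and the RNA methyltransferase Nop2 at -0.32. Rrs1, which helps place the 5S RNA, was not called (-0.11, adjusted p = 0.26). Each of the 3 multifunctional proteins was lower. Ncl, the abundant RNA-binding protein nucleolin, read 731 and 697 CPM in the mutant libraries against 1221 and 1350 CPM, 1.80-fold lower (-0.85, SE 0.06, adjusted p = 1.8e-12). The helicase Ddx21 stood at -0.62 and the chaperone Npm1 at -0.42.

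**Figure D3:**
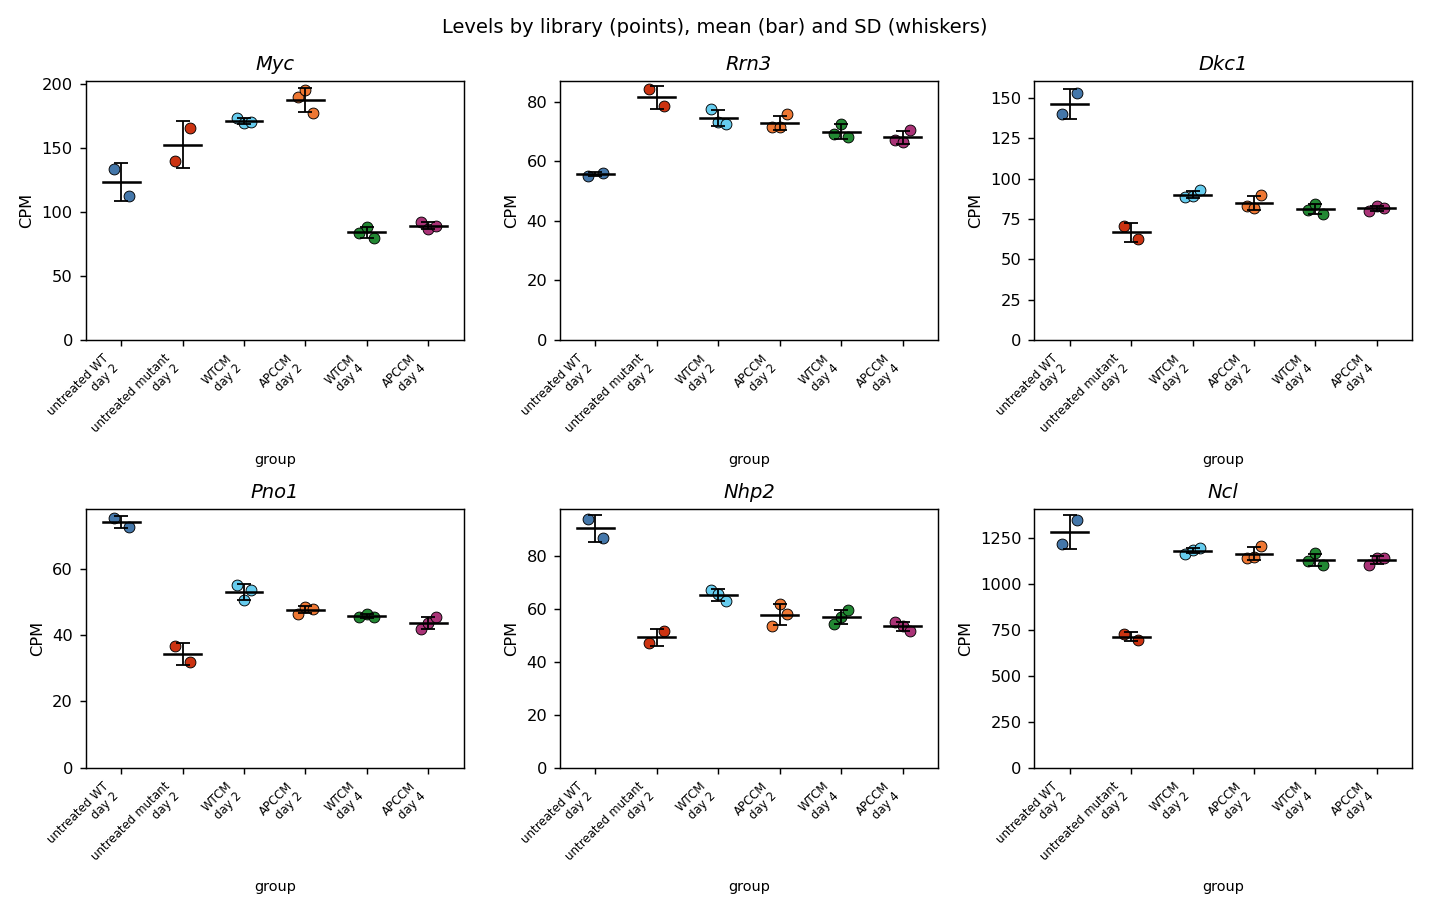
Levels (CPM) of Myc, Rrn3, Dkc1, Pno1, Nhp2 and Ncl in each library of the 6 groups; points are libraries, bars are means and whiskers are SD. The untreated mutant libraries lie below the untreated wild type libraries for Dkc1, Pno1, Nhp2 and Ncl and above them for Rrn3 and Myc.

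Other genes of the pathway, which are no members, were lower too. Of 143 such genes 79 were lower and 9 higher, with a median of -0.25, where 30.1% of all genes tested were lower and 32.4% higher. The processome list had 21 of 38 lower, large subunit maturation 29 of 53 with 6 higher, 40S maturation 6 of 11, snoRNP assembly 6 of 11, and the RNA exosome, which trims the precursor, 9 of 13 with 1 higher. Of 17 genes of the RNA polymerase I machinery 8 were lower and 2 higher, and Polr1d, a subunit shared with RNA polymerase III, stood at -0.96 (SE 0.07). Among 29 Myc targets outside ribosome biogenesis 21 were lower and 5 higher. Changes in this list ran from -2.15 to 6.47, with a median of -0.43. As examples inside that range, Tfrc, the transferrin receptor, was lower (-1.66, SE 0.09), and Slc7a5, an amino acid transporter, was higher (1.66, SE 0.07).

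Cell type markers moved in the same comparison. The 8 absorptive enterocyte markers summed to 308 to 315 CPM in the mutant libraries and to 8003 to 8084 CPM in the wild type libraries, with 7 of 8 lower. Of the 8 general epithelial markers 5 were lower and 2 higher, with sums of 3470 to 3770 and 5722 to 6204 CPM, and Krt20, a marker of differentiated cells, was at 0 counts in both mutant libraries. Of the 5 crypt stem cell markers 4 were higher, although their sum was lower in the mutant (1833 to 1919 against 2633 to 2834 CPM). The 12 proliferation genes summed to 2667 to 2769 and 2777 to 2969 CPM, with 2 higher and 3 lower. The fibroblast and stroma list summed to 271 to 287 CPM in the mutant and 5.57 to 6.38 CPM in the wild type, of which Vim made 278 and 5.17 CPM, while Col1a2, Col3a1, Dcn and Lum were at 0 counts in both groups. Immune markers summed to at most 7.77 CPM and endothelial and neural markers to at most 2.70 CPM in the untreated libraries. Their part in the result was not tested, and in bulk samples fewer cells of a type and less RNA per cell cannot be told apart.

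From day 2 to day 4 in conditioned medium, Myc fell about as much in both labels and the other members fell less. Day here cannot be told apart from the separate sets of libraries described above. In APCCM Myc dropped 2.098-fold (log2 fold change -1.07, SE 0.06, adjusted p = 4.3e-11), from 187 ± 9.31 to 89.3 ± 2.78 CPM (SD, n = 3 each). In WTCM it dropped 2.03-fold (-1.02, SE 0.06, adjusted p = 6.4e-11), from 171 ± 2.27 to 84.3 ± 4.28 CPM. The difference between these changes was -0.05 (SE 0.09, 95% interval -0.23 to 0.14, adjusted p = 0.92). In neither label did another member change as much as Myc: their log2 fold changes ran from -0.28 to 0.05 in APCCM and from -0.41 to 0.06 in WTCM. Called or not, 29 of the 33 had a negative log2 fold change in APCCM and 32 in WTCM. The median of all genes tested was 0 in APCCM and 0.0043 in WTCM. The summed level of the 33 genes went from 4493 ± 88.8 to 4271 ± 54.8 CPM in APCCM and from 4703 ± 44.4 to 4296 ± 94.2 CPM in WTCM. Abundant members weigh most in the sum, so it does not stand for each gene. Ncl alone went from 1166 to 1130 CPM in APCCM and from 1183 to 1133 CPM in WTCM, and was not called. Divided by the Myc level, the sum rose from 24.0 ± 1.58 to 47.9 ± 2.00 and from 27.5 ± 0.125 to 51.0 ± 1.71.

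**Figure D4:**
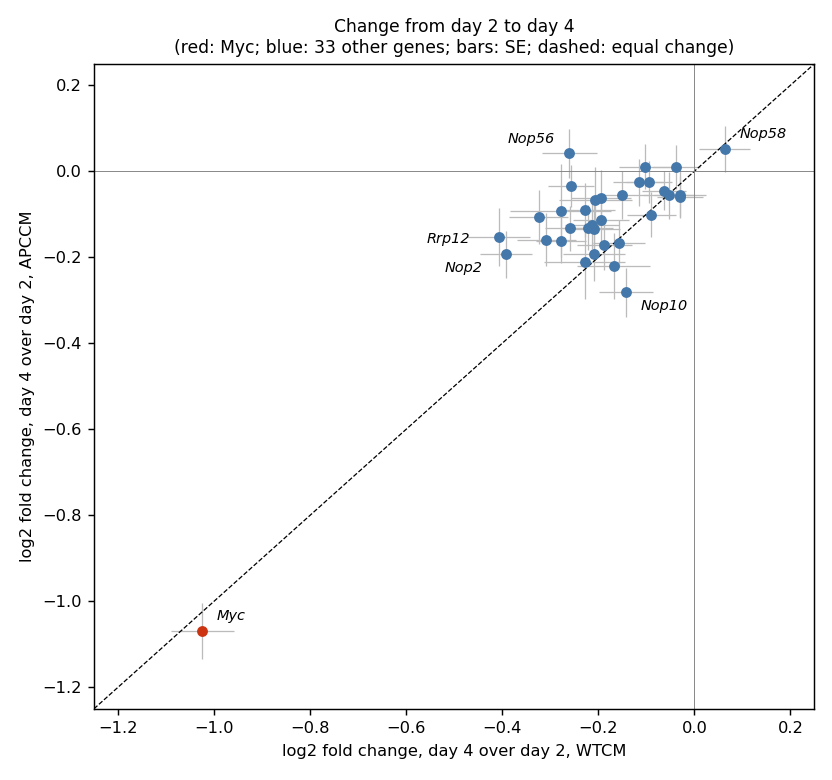
Log2 fold change from day 2 to day 4 in WTCM (x axis) and APCCM (y axis) for Myc (red) and the 33 other genes (blue); bars are SE and the dashed line marks equal change. Myc lies at -1.02 and -1.07, and no other gene lies below -0.41 on either axis.

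In WTCM 18 of the 33 members were lower on day 4 and the other 15 were not called, with a median of -0.19. Of all genes tested 24.1% were called there, 12.5% were higher and 11.6% lower (2059 higher and 1921 lower, or 1616 and 2345 with library totals in place of TMM scaling, which calls 23 of the 33 lower). Rrp12, an assembly factor of both subunits, read 53.2, 48.3 and 52.4 CPM on day 2 and 36.3, 39.1 and 40.4 CPM on day 4 (-0.41, SE 0.07, adjusted p = 7.7e-05). Nop2 read 98.1, 88.9 and 85.9 CPM on day 2 and 67.1, 71.3 and 69.5 CPM on day 4 (-0.39, SE 0.05, adjusted p = 9.9e-06). Rrs1 read 46.8, 44.24 and 44.25 CPM on day 2 and 34.7, 36.0 and 37.2 CPM on day 4 (-0.32, SE 0.06, adjusted p = 4.1e-04). For these 3 genes every day 2 library stood above every day 4 library, which the rule for showing them required.

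By role, the WTCM falls covered 7 of 9 small subunit genes (Rrp12, Heatr1, Pno1, Tsr1, Utp20, Nob1 and Wdr75) and 5 of 7 large subunit genes (Nop2, Rrs1, Wdr12, Nop16 and Bop1). They covered 3 of 9 snoRNP proteins (Nop56, Nolc1 and Nhp2), 2 of 5 genes of rRNA transcription (Polr1b and Polr1a) and, of the multifunctional proteins, Npm1. Dkc1, with the largest fall in the untreated comparison, stood at -0.15 here (adjusted p = 0.051), and Ncl at -0.06 (adjusted p = 0.35). Without WTCM day 2 replicate 1, 12 members were called lower, Myc included, instead of 19.

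In APCCM 7 of the 33 members were lower on day 4, with a median of -0.10, where 23.9% of all genes were called, 12.2% higher and 11.7% lower. With library totals in place of TMM scaling 11 of the 33 were lower, and with DESeq2 5. Nop10 read 44.8, 47.7 and 46.8 CPM on day 2 and 37.2, 37.7 and 39.6 CPM on day 4 (-0.28, SE 0.06, adjusted p = 6.6e-04). Gar1, its partner in H/ACA snoRNPs, read 31.9, 34.2 and 31.5 CPM on day 2 and 24.9, 28.2 and 30.5 CPM on day 4 (-0.22, SE 0.08, adjusted p = 0.038). Nop2 read 82.2, 82.8 and 79.5 CPM and then 70.0, 74.8 and 69.1 CPM (-0.19, SE 0.05, adjusted p = 0.011). The groups did not overlap for any of the 3, which the rule for showing them required. The other 4 were Utp20 (-0.19), Wdr75 (-0.17), Npm1 (-0.17) and Heatr1 (-0.16). These calls rested on few libraries: leaving out any 1 of the 6 APCCM libraries left 4 or 5 members called, Myc included, instead of 8.

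Heatr1, Nop2, Npm1, Utp20 and Wdr75 were lower on day 4 in both labels, as was Myc. A further 13 members were called in WTCM and not in APCCM, and Gar1 and Nop10 in APCCM and not in WTCM. The test of the difference between the labels called 1 member, Nop56, where 2.13% of all genes were called, 0.884% with a higher and 1.24% with a lower value in APCCM. For the others the day changes were not shown to differ between labels.

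Nop56 stayed level in APCCM and was lower in WTCM. It read 111, 114 and 116 CPM on day 2 and 111, 125 and 116 CPM on day 4 in APCCM. In WTCM it read 116, 115 and 117 CPM on day 2 and 92.1, 105 and 93.0 CPM on day 4. The day 4 WTCM libraries all lay below the other 9, and the difference of the day changes was 0.30 (SE 0.08, adjusted p = 0.049). This call was lost without 10 of the 12 libraries in conditioned medium, each left out in turn, for example at adjusted p = 0.17 without APCCM day 4 replicate 2 and at 0.12 without APCCM day 2 replicate 1. It was lost too without WTCM day 4 replicate 1, the library that stood apart (0.27, adjusted p = 0.15), and with library totals in place of TMM scaling (0.31, adjusted p = 0.071). Nop56 holds 5 small nucleolar RNA genes and overlaps Idh3b on the opposite strand, and the strand setting of the counting is not given in the sources used here.

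Of 143 other genes of the pathway, 20 were lower and 13 higher on day 4 in APCCM (median -0.05), and 45 lower and 3 higher in WTCM (median -0.11). Of all genes tested, 23.9% were called in APCCM (11.7% lower, 12.2% higher) and 24.1% in WTCM (11.6% lower, 12.5% higher). In APCCM the 143 were thus called about as often as all genes. Ttf1, which ends transcription by RNA polymerase I, was lower in both labels (-0.40, SE 0.07, in APCCM and -0.24, SE 0.07, in WTCM), as was Taf1a, a subunit of its promoter factor SL1 (-0.41 and -0.49). Of the 29 Myc targets outside the pathway 11 were lower and 2 higher in APCCM, and 13 lower in WTCM with the rest not called. Cad and Ppat, enzymes of nucleotide synthesis, were lower in both labels (-0.32 and -0.42 in APCCM, -0.44 and -0.42 in WTCM).

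Differentiation and proliferation markers moved with day as well. The sum of the 8 enterocyte markers went from 7028 to 7389 CPM on day 2 to 8887 to 9437 CPM on day 4 in APCCM, with 3 higher, and from 7086 to 7629 CPM to 9732 to 10710 CPM in WTCM, with 6 higher. The 12 proliferation genes summed to 2812 to 2899 and then 2599 to 2689 CPM in APCCM, with 3 lower, and to 2613 to 2668 and then 2294 to 2418 CPM in WTCM, with 6 lower. The 5 stem cell markers summed to 2662 to 2848 and then 1899 to 2085 CPM in APCCM, with 4 lower, and to 3488 to 3723 and then 3664 to 3800 CPM in WTCM, with 1 lower. The fibroblast and stroma list stayed at or below 8.57 CPM, the immune list at or below 6.07 CPM and the endothelial and neural list at or below 5.21 CPM in these 12 libraries. Dcn, Lum and Col3a1 were at 0 counts in all 4 groups. The part of the enterocyte, proliferation and stem cell markers in the result was not tested.

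Between APCCM and WTCM the members differed little. On day 2 Myc was not called (log2 fold change 0.13, 95% interval -0.0012 to 0.26, adjusted p = 0.17), although the APCCM libraries all lay above the WTCM libraries. Of the 33 other members 7 were lower in APCCM and 26 were not called, with a median of -0.10. Of all genes tested 16.7% were called, 8.54% higher and 8.15% lower (1410 higher and 1345 lower, or 1671 and 918 with library totals in place of TMM scaling).

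The 7 members were spread over the roles. Nob1 read 40.2, 40.1 and 41.1 CPM in APCCM against 47.9, 49.3 and 46.1 CPM in WTCM (-0.24, SE 0.06, adjusted p = 0.011). Rrs1 read 37.6, 40.8 and 37.4 CPM against 46.8, 44.24 and 44.25 CPM (-0.23, SE 0.06, adjusted p = 0.013). Polr1b read 76.4, 80.8 and 79.2 CPM against 94.2, 84.6 and 88.5 CPM (-0.18, SE 0.05, adjusted p = 0.020). In each of these 3 genes every APCCM library lay below every WTCM library, which the rule for showing them required. Nhp2, shown by the same rule, read 53.5, 61.6 and 58.0 CPM against 67.1, 65.4 and 62.9 CPM (-0.18, SE 0.06, adjusted p = 0.044). Nolc1, Nop2 and Ubtf made up the rest, at -0.16, -0.16 and -0.14. The calls were fragile: without APCCM day 2 replicate 1, APCCM day 2 replicate 3 or WTCM day 2 replicate 1 just 1 member was called. With library totals in place of TMM scaling 2 were called, with RLE scaling 4 and with DESeq2 5.

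On day 4 Myc was not called either (0.08, 95% interval -0.05 to 0.22, adjusted p = 0.44), and the groups overlapped. Among the 33 others 1 was higher, Nop56 (0.28, SE 0.06, adjusted p = 0.0013), and 1 was lower, Ubtf (-0.17, SE 0.05, adjusted p = 0.016), where 15.6% of all genes were called, 7.83% higher and 7.8% lower (1293 higher and 1287 lower, or 1744 and 928 with library totals). Ubtf read 178, 173 and 175 CPM in APCCM and 196, 202 and 194 CPM in WTCM. It was the 1 member called lower in APCCM on both days, but its day 2 call was lost with RLE scaling and with library totals. Its call on day 4 was lost without APCCM replicate 2 or 3 or WTCM replicate 2 (adjusted p = 0.061, 0.055 and 0.067) and with library totals (0.091). The median of the 33 genes was near 0 (-0.005). Of the 143 other pathway genes 7 were lower and 1 higher on day 2, and 3 lower and 5 higher on day 4. Of all genes tested 16.7% were called on day 2 and 15.6% on day 4, a larger share than among these 143. Mybbp1a and Nop14 were called in none of the 5 comparisons of 2 groups.

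Markers of crypt cells differed between APCCM and WTCM as well. The 5 stem cell markers summed to 2662 to 2848 CPM in APCCM and 3488 to 3723 CPM in WTCM on day 2, with 4 lower, and on day 4 all 5 were lower. Of the 12 proliferation genes 1 was higher in APCCM on day 2 and 4 on day 4. The part of these markers in the member calls was not tested.

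The label differences of the 2 kinds of culture on day 2 were also compared with each other. The mutant to wild type difference of untreated organoids differed from the APCCM to WTCM difference in 21 of the 34 members, where 53.1% of all genes were called, 26.4% higher and 26.7% lower (4360 and 4404, or 5308 and 3532 with library totals). Of these, 20 members were lower, led by Dkc1 (-1.05, SE 0.09), and Rrn3 was higher (0.58). With library totals 14 members were lower and 4 other than Myc higher, and Nop16, Npm1, Rrp9, Tsr1, Utp20 and Wdr75 were no longer called. Medium, RNA content of the libraries and the meaning of the labels cannot be told apart in this test. Myc was not called (0.18, 95% interval -0.04 to 0.39, adjusted p = 0.16), though it was with library totals (0.32, adjusted p = 0.015).

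Partners and rivals of Myc were followed next. Max is the shared partner, Mycn and Mycl are relatives of Myc, the Mxd proteins, Mxi1 and Mnt compete for Max as repressors, and Mlx, Mlxip and Mlxipl form a parallel branch that senses glucose. Of 12 such genes 5 were higher and 5 lower in untreated mutant organoids, where 32.4% of all genes were higher and 30.1% lower. Mlxipl read 27.0 and 34.1 CPM in the mutant libraries and 191 and 179 CPM in the wild type libraries, 6.03-fold lower (-2.59, SE 0.08, adjusted p = 8.1e-19). Mxd1 (-1.60), Mlx (-1.08) and Mlxip (-0.92) were lower as well, and Mycn, at 0.126 CPM in the mutant and 1.29 CPM in the wild type, had too few mutant counts for a fold change. Mycl read 104 and 98.5 CPM against 62.5 and 58.6 CPM (0.74, SE 0.07, adjusted p = 1.4e-09). Mxd3 (1.35), Mxi1 (0.71), Mxd4 (0.55) and Mnt (0.38) were higher, and Max and Mga were not called.

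From day 2 to day 4, 7 of the 12 network genes were called in each label, where 23.9% of all genes were called in APCCM and 24.1% in WTCM. Mnt read 32.4, 34.6 and 36.0 CPM on day 2 and 53.4, 58.0 and 55.5 CPM on day 4 in APCCM (0.70, SE 0.07, adjusted p = 5.7e-08). In WTCM it read 41.1, 40.1 and 41.8 CPM and then 58.8, 59.4 and 60.4 CPM (0.54, SE 0.07, adjusted p = 2.3e-06). Mlxipl (0.45 in APCCM and 0.29 in WTCM) and Mxd4 (0.26 and 0.19) were higher too. Mxd1 (-0.62 and -0.42), Max (-0.23 and -0.28) and Mycl (-0.23 and -0.16) were lower in both, while Mxi1 was called lower in APCCM (-0.19) and Mycn in WTCM (-0.79). Between APCCM and WTCM on day 2, Mycn (-1.45), Mxd4 (-0.48), Mnt (-0.26) and Mycl (-0.19) were lower in APCCM and Mxd1 was higher (0.39). On day 4 Mycn (-0.95), Mxd4 (-0.42) and Mycl (-0.26) were lower in APCCM and the other 9 were not called. Mycn was scarce, at 1.10 CPM in APCCM and 3.05 CPM in WTCM on day 2, with as few as 12 reads in a library. On day 4 it stood at 0.922 and 1.76 CPM, so its fold changes are uncertain.

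**Figure D5:**
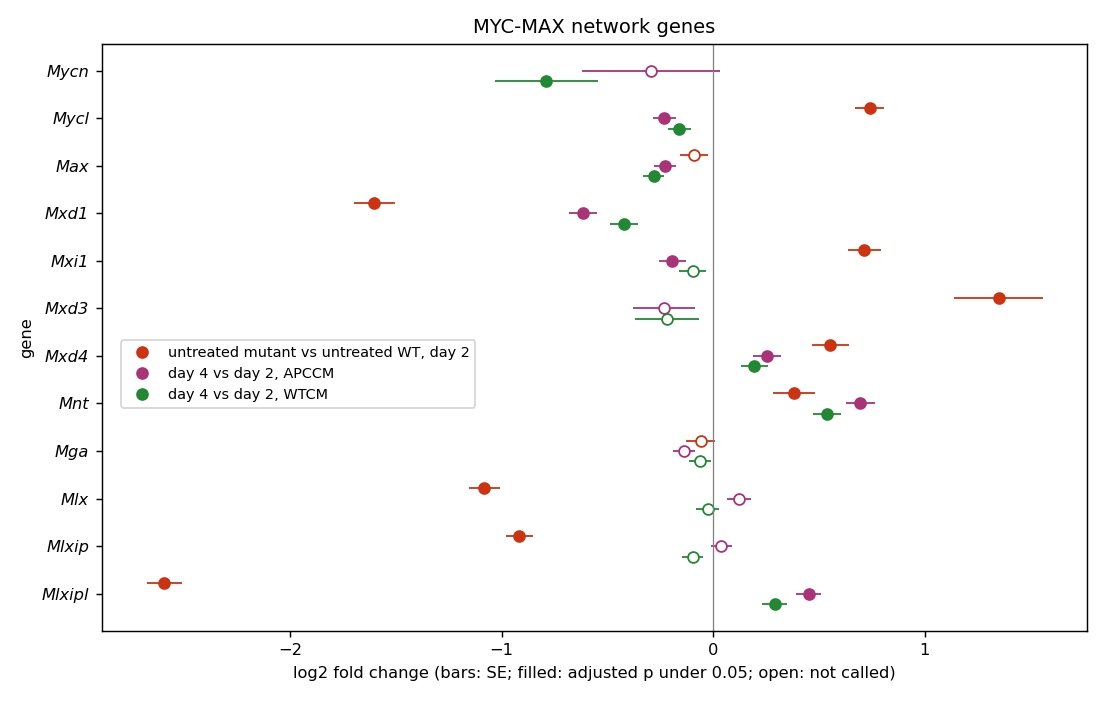
Log2 fold change (x axis, bars are SE) of 12 MYC-MAX network genes between untreated mutant and wild type organoids and from day 2 to day 4 in both labels; filled points have an adjusted p under 0.05 and open points do not, and Mycn is not drawn for the untreated comparison. Mnt and Mxd4 lie to the right of 0 in all 3 comparisons and Mxd1 to the left.

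Whether members follow Myc from library to library was described within groups, by the correlation of deviations from the group mean over the 12 libraries in conditioned medium. Ubtf (Pearson r 0.74), Pes1 (0.62) and Rrp9 (0.58) were most like Myc, and Nob1 (-0.47), Ddx21 (-0.47) and Fbl (-0.42) least. The median over the 33 genes was 0.09. Over all 16509 genes tested other than Myc, these 33 included, it was -0.01, with quartiles of -0.24 and 0.23. The libraries share 1 scaling, the labels name no batch for them, and no test was made.

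Members with and without an E-box in their window were set side by side as a description. In untreated organoids the 8 with the motif had a median log2 fold change of -0.32, with 6 lower and Rrn3 higher, and the 20 without it had a median of -0.65, with 15 lower. From day 2 to day 4 the medians were -0.11 with and -0.08 without the motif in APCCM, and -0.15 and -0.19 in WTCM. The 7 members that hold small nucleolar RNA genes were Nop56, Nop58, Dkc1, Wdr43, Tsr1, Gnl3 and Ncl. Their median was -0.67 in untreated organoids, where the 26 other members apart from Myc stood at -0.32. From day 2 to day 4 their median was -0.05 in APCCM and -0.06 in WTCM, where the 26 others stood at -0.12 and -0.21.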

How the data were processed

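RNA of organoids was sequenced in 16 libraries of 6 groups, after ribosomal RNA depletion per the labels' protocols. Per the submitters' processing notes, the authors used Trimmomatic 0.36, HISAT2 2.1.0 and HTSeq 0.6.1p1 with build GRCm38 and deposited raw read counts per Ensembl gene. For options, strand setting and annotation release, the value is not given in the sources used here. The 5 summary lines of each file were left out of library sizes; reads without a feature made 14.4 to 19.2% in conditioned medium and 4.78 to 7.32% in untreated libraries. Symbols matched 98.16% of the 46078 identifiers.

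The counts of all 16 libraries were fitted together with edgeR 4.0.16 in R 4.3.3 (TMM, filterByExpr, quasi-likelihood test, 10 residual degrees of freedom, adjusted p threshold 0.05), with the 6 groups and no covariate. The script was tested on simulated data. Alternatives were DESeq2 1.42.0, RLE scaling, no filter, protein-coding genes only, the compared groups only, a replicate block and each library left out. Library totals and a crossed pairing were added after seeing the data. Intervals use the degrees of freedom of the fit. Reads that aligned to several places were not counted, so genes with near copies elsewhere, such as Npm1, are uncertain. So are 14 members that overlap a gene on the opposite strand, among them Dkc1, Pno1 and Nhp2.

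The members and lists were chosen with earlier results of these data known. Values in every library were given for Myc and, in each comparison of 2 groups, for up to 4 called members with the largest change in each direction whose groups did not overlap. Other members were given by role, the MYC-MAX network in full, and other lists by counts, medians and up to 4 examples.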

Additional observations from a re-analysis of the deposited data

Results flagged for a closer look

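A pair of tests of a difference between differences called members. The change from day 2 to day 4 differed between APCCM and WTCM in 1 member, Nop56, by 0.3023 on the log2 scale. The call was lost with library totals (adjusted p = 0.071) and without 10 of the 12 libraries in conditioned medium, each left out in turn.

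On day 2, 21 members differed between the mutant to wild type difference of untreated organoids and the APCCM to WTCM difference in conditioned medium. The log2 difference was positive for Rrn3 (0.5777) and negative for 20 others. Among snoRNP proteins it was -1.0462 for Dkc1, -0.9343 for Nop58, -0.7834 for Nop10, -0.7518 for Gar1, -0.6999 for Nhp2, -0.6702 for Fbl and -0.5118 for Rrp9. Among genes of the small subunit it was -0.9571 for Pno1, -0.5614 for Heatr1, -0.3981 for Wdr43, -0.3435 for Tsr1, -0.3404 for Utp20 and -0.2887 for Wdr75. Among genes of the large subunit it was -0.6896 for Gnl3, -0.6661 for Wdr12, -0.5027 for Bop1 and -0.2573 for Nop16. The multifunctional proteins stood at -0.8261 for Ncl, -0.4898 for Ddx21 and -0.3009 for Npm1. Nop16, Npm1, Rrp9, Tsr1, Utp20 and Wdr75 were no longer called with library totals in place of TMM scaling.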

How the results depend on the processing

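Counts are of members past the threshold, Myc included. Between APCCM and WTCM on day 2 the 7 members became 4 with RLE scaling, 4 with no filter, 13 with only the groups compared, 4 with the replicate block and 2 with library totals, and 1 to 10 with a library left out. On day 4 the 2 members became 1 with library totals and 1 to 2 with a library left out. From day 2 to day 4 in APCCM the 8 became 14 with only the groups compared, 5 with the replicate block, 12 with library totals, 6 with DESeq2 and 4 to 9 with a library left out, and in WTCM the 19 became 12 to 22. The 1 member whose day change differed between labels became 2 with DESeq2, 2 with only the groups compared, 0 with the replicate block, 0 with library totals and 0 to 1 with a library left out. The 21 members whose label difference depended on the kind of culture became 20 to 22, and the 26 members in untreated organoids 24 to 26, with a library left out. The cause of these shifts was not tested. The replicate numbers gave no clear sign of pairing: the 14 same-number correlations ran from -0.149 to 0.053, and in 4 of the 14 the own number gave the highest correlation. All pairs between days in APCCM were among these 4 (0.046, 0.053 and 0.05). The 14 values are not separate checks, because deviations from a group mean are tied within a group. With 2 libraries per group, the untreated values are the same by construction. With the untreated numbers crossed, chosen after seeing the data, the untreated count was 26. For the 30 log2 fold changes followed singly, those of Myc and of the members with the largest called changes, 649 values under alternatives kept their direction and side of the threshold, 48 lost the call and 5 gained it. Most of these values come from fits without 1 library, often of a group outside the comparison, so the 649 overstate how stable the calls are. The untreated groups hold 2 libraries each at lower depth, which limits their precision. Leaving 1 out assumes that the lone library varies like the other groups.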
